A study of Mus musculus with 12 samples.

Results

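Chemokines and their receptors were followed in the RNA of whole mouse lung on 12 single-colour (Cy3) Agilent 4x44K arrays, 1 per mouse. The genes were chosen by name: symbols of the Ccl, Cxcl, Ccr and Cxcr families with a number, and Ppbp, Pf4, Cx3cl1, Cx3cr1, Xcl1 and Xcr1, provided that 4 or more of the 12 arrays had a probe of the gene well above background. Of 51 such genes on the array 43 were measured, 31 ligands and 12 receptors, among 19823 genes in all. The 3 groups were wild type (WT) mice in room air, WT mice in cigarette smoke and Rora mutants in cigarette smoke, with 4 mice each that the labels call biological replicates. All mice were labelled male, C57Bl/6 and 12 weeks old, and the smoke protocol, given for all samples, ran on 5 days a week for 4 months. The mutants' Rora allele is not named in the labels. Mutants in room air were not analysed here, so an effect of the mutation cannot be told apart from a changed response to smoke.

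Chemokines are small secreted proteins that bind G protein-coupled receptors and draw leukocytes along their gradient. The CXC, CC, XC and CX3C families are named after the spacing of their first cysteines. In the lung, epithelium, macrophages and vessel walls release chemokines that recruit neutrophils, monocytes, eosinophils and lymphocytes, platelets carry others in their granules, and some are made without any stimulus and position resident cells. Rora encodes ROR alpha, a nuclear receptor and transcription factor.

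Arrays were of like quality, with 70.1% to 74.8% of spots well above background and a 75th percentile of 738.7 to 1234 intensity units, and they lay on 3 slides that each held all groups. Levels are log2 signal minus that of the array's 75th percentile, so 0 is a signal at that percentile. Differences are in log2 units, with the standard error (SE) of the limma fit, and a gene passed at an adjusted p under 0.05 over all genes. Rora itself stood at -0.92 ± 0.09 (SD, n = 4) in the mutants, against 1.27 ± 0.04 in WT mice in smoke and 1.19 ± 0.04 in those in room air; without the allele it is not known whether the probe lies in an altered part. Sex-linked RNA went against the labels: the 4 room-air arrays had Xist at 4.06 to 4.22 and Y-linked Uty, Kdm5d and Ddx3y above background on 0 of 4 arrays, with Y-linked Eif2s3y dim but above background on 2 of 4 (-5.58 and -5.50). By contrast all 8 smoke arrays had these 4 Y-linked genes above background (Eif2s3y at 1.17 to 1.68) and Xist at -3.08 or lower. Exposure and this sex-linked difference therefore cannot be told apart in either comparison with room air, while mutant and WT smoke arrays were alike in it.

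In WT smoke against WT room air, the platelet chemokines Ppbp and Pf4 rose 3.54-fold and 1.91-fold, with the smallest p-values of the family. The neutrophil chemokine Cxcl5, the eosinophil chemokine Ccl11 and the macrophage chemokine Ccl6 also rose, while Ccl17 and Ccl27a fell. Thus 5 of 43 members passed as higher and 2 as lower (16.3% together), against 2.4% and 2.49% of all genes (4.88% together). Groups of 4 arrays did not overlap for 10 members (23.3%), against 12.8% of all genes. The 7 that passed were ligands, and 0 of 12 receptors did. Of the receptors 4 had an unadjusted p under 0.05, as had 3659 of 19823 over all genes. The median difference of the members was 0.02, and that of all genes -0.01, and 22 of the 43 differences were positive. Normexp background correction, run as an alternative, added 50 intensity units to all spots. With it 2 members (Ppbp and Pf4) passed as higher and 0 as lower. The other 5 kept their direction, with adjusted p from 0.12 to 0.983. Their differences were 0.49 for Ccl6 (main 0.46), -0.63 for Ccl17 (-0.66) and -0.24 for Ccl27a (-0.28). For Ccl11 the value was 0.28 (main 0.62) and for Cxcl5 0.04 (1.69). The cause of the lost calls was not tested. Of all genes called, 49.1% were higher, and 63.8% with each array centred on its median and 75.5% with normexp.

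In smoke-exposed Rora mutants against smoke-exposed WT mice, Ccl6 rose further, by 1.42-fold, and Ccl11 and the epithelial chemokine Cxcl14 fell. That is 1 member higher and 2 lower (6.98% together), against 2.66% and 3.5% of all genes (6.15% together), a share near the background. The groups were apart for 6 members (14%), against 13.5% of all genes. Again 0 of 12 receptors passed. At an unadjusted p under 0.05 were 3 of them and 4253 of 19823 over all genes, the background for later such counts between the smoke groups. The median difference was -0.09 over the members and 0.01 over all genes, and 28 of the 43 differences were negative, as were 9374 of 19823 over all genes. With normexp 0 members passed (Ccl6 0.39, Cxcl14 -0.79 and Ccl11 -0.15, adjusted p = 0.267, 0.109 and 0.659). Of all genes called, 43.2% were higher, and 57.9% with median centring.

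In mutant smoke against WT room air, where mice differ in exposure, genotype and sex-linked RNA, 6 members passed as higher and 7 as lower, against 7.27% and 9.52% of all genes; the 13 are 30.2% of the members, against 16.8% of all genes. The higher members were Ccl20, Ppbp, Ccl6, Pf4, Ackr3 and Ccl12. The lower ones included Cxcl9, Ccl17, Cxcl14, Cx3cr1, Ccl21c and Ccl19. Groups were apart for 13 members (30.2%), against 21.2% of all genes. With normexp the calls for Ppbp, Pf4, Ccl6, Ccl17 and Cxcl14 held, and the other 8 did not pass. Of all genes called, 43.3% were higher, and 69.4% with median centring. This comparison shares its arrays with both others, so its values stand beside theirs and are no separate evidence.

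**Figure D1:**
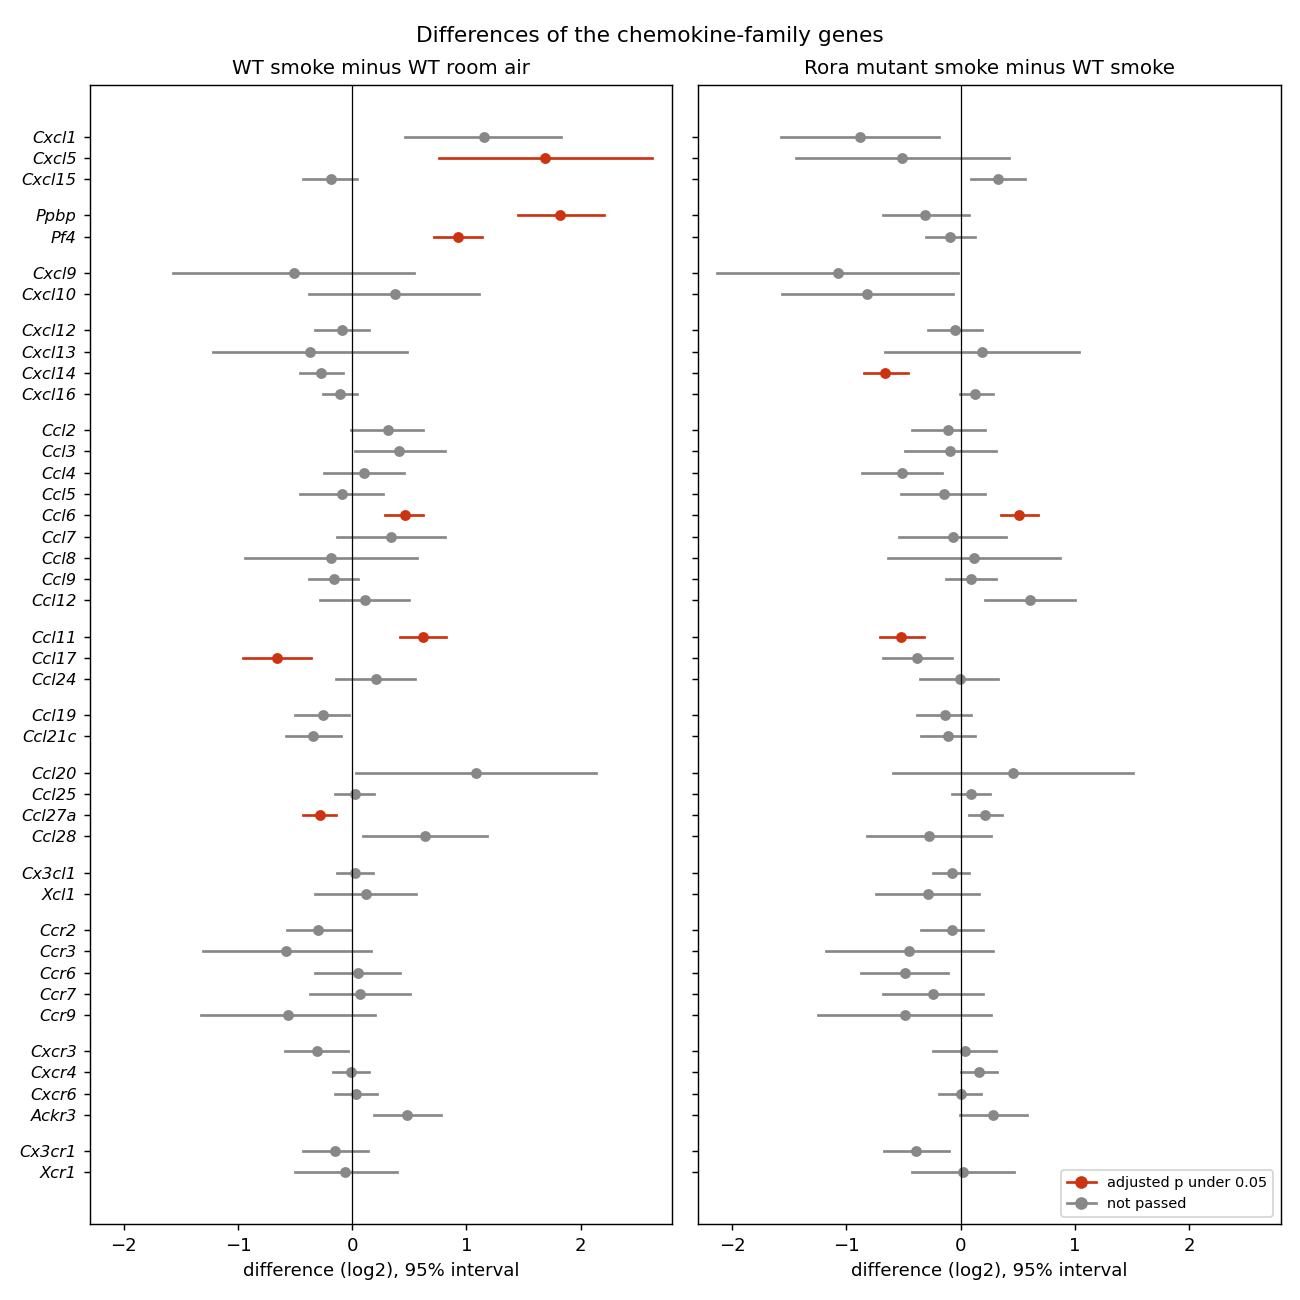
Difference in log2 units (x axis, point with 95% interval) of the members (y axis, grouped by role, ligands above receptors) in WT smoke minus WT room air (left) and Rora mutant smoke minus WT smoke (right), n = 4 mice per group. Red points passed: Ppbp, Cxcl5, Pf4, Ccl11 and Ccl6 to the right of 0 and Ccl17 and Ccl27a to the left in smoke, and Ccl6 to the right and Cxcl14 and Ccl11 to the left in mutants; both panels use the same WT smoke arrays.

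Ppbp (pro-platelet basic protein, cleaved to the CXCR2 ligand NAP-2) and Pf4 (platelet factor 4, also CXCL4) are packed into platelet granules, and their RNA marks megakaryocytes and platelets. The level of Ppbp (probe at chromosome 5, 91845144 to 91845203, mm8) was 0.25, 0.50, 0.23 and 0.17 in the 4 room-air mice, 2.02, 2.26, 1.93 and 2.23 in WT smoke, and 1.82, 1.81, 2.29 and 1.29 in mutant smoke. Pf4 (chromosome 5, 91848449 to 91848508) read 1.74, 1.90, 1.92 and 1.70 in room air, 2.82, 2.85, 2.58 and 2.74 in WT smoke, and 2.62, 2.71, 2.88 and 2.43 in mutants. For both genes every smoke array lay above every room-air array, and the smoke groups overlapped each other. Ppbp rose by 1.82 ± 0.17 (SE, adjusted p = 1.26e-04) and Pf4 by 0.93 ± 0.10 (adjusted p = 2.54e-04) in WT smoke. Within the 3 slides the differences were 1.81, 1.74 and 1.70 for Ppbp and 1.10, 0.90 and 0.66 for Pf4, each resting on a single mouse of at least 1 group. Mutants differed from WT smoke by -0.31 in Ppbp (95% interval -0.68 to 0.07) and by -0.09 in Pf4 (-0.30 to 0.13), neither of which passed.

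Because the pair are neighbours on chromosome 5 and moved together, the 250 bases before their RefSeq starts are shown (GRCm38.p6, plus strand, chr5:90768268-90768517 and chr5:90772185-90772434). Capitals mark AGGTCA or its reverse complement TGACCT, a general nuclear receptor half-site that is also the core of ROR response elements. Only these 6 letters were searched, so a match does not tell which receptor it could serve.
Ppbp: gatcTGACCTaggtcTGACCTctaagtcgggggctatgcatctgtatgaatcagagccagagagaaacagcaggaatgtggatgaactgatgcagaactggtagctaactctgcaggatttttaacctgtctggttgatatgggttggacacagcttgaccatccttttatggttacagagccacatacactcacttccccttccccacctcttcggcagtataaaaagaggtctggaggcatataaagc
Pf4: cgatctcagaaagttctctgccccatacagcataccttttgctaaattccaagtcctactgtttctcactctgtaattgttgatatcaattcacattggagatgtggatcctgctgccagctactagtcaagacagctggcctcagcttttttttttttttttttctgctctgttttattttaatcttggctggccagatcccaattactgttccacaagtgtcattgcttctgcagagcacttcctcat
Ppbp has 2 such matches, starting 246 and 235 bases before the start, and Pf4 has 0. GATAA, the core letters that GATA factors bind, was in neither window on either strand, and neither was GCGTG, the core of aryl hydrocarbon receptor elements.

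The platelet chemokines moved with the other platelet genes. Of 13 measured platelet and megakaryocyte markers, 12 passed as higher in WT smoke, with a median difference of 1.19 against -0.01 over all genes, 12 were higher in mutant smoke than in room air (median 1.06), and 0 passed between the smoke groups (median -0.12, 3 at an unadjusted p under 0.05). Their summed level was 2.68 to 2.78 in room air, 3.53 to 3.80 in WT smoke and 3.32 to 3.97 in mutants. Gp9, a subunit of the platelet von Willebrand factor receptor, rose by 1.54 ± 0.19, and Itga2b, the platelet integrin, by 1.19 ± 0.13, whereas Mmrn1, a multimerin of platelets and endothelium, differed by 0.02 ± 0.05. The part of platelet number in the rise of Ppbp and Pf4 was not tested: in whole lung, more or fewer cells of a type and more or less RNA per cell cannot be told apart.

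**Figure D2:**
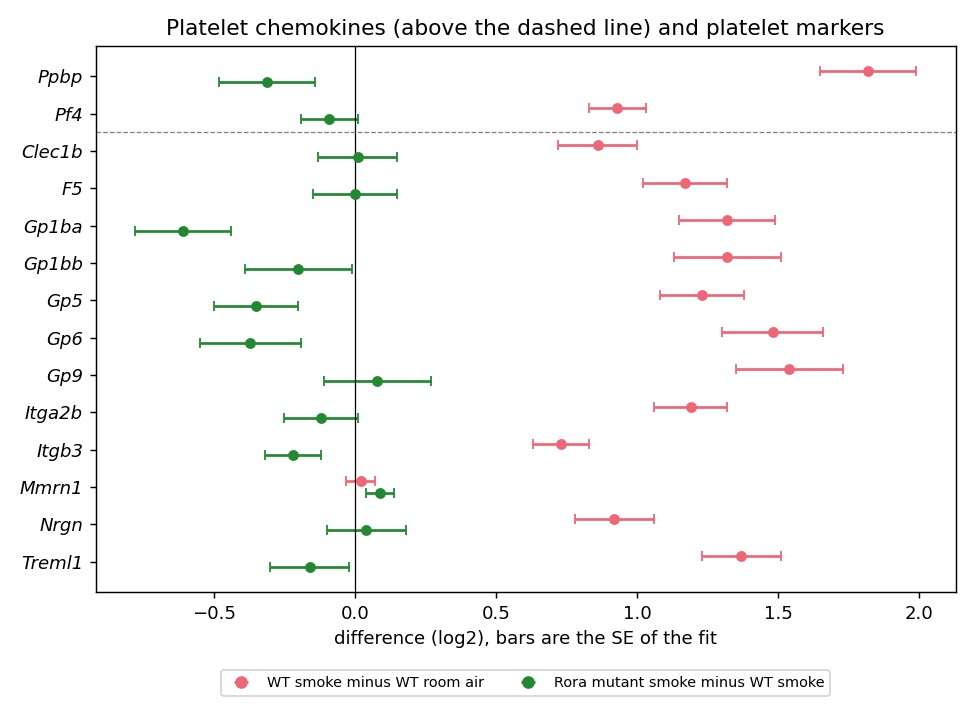
Difference in log2 units (x axis; bars are the SE of the fit, n = 4 mice per group) of Ppbp and Pf4, above the dashed line, and of platelet markers below it. Red points, WT smoke minus WT room air, lie between 0.73 and 1.82 except Mmrn1 at 0.02, while green points, Rora mutant smoke minus WT smoke, lie between -0.61 and 0.09.

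Of the 3 measured CXC ligands of neutrophils, Cxcl5, Cxcl1 and Cxcl15, 1 passed as higher in WT smoke and 0 between the smoke groups, where 2 had an unadjusted p under 0.05. Cxcl5 (epithelial neutrophil-activating peptide; chromosome 5, 91836379 to 91836438) read -6.55, -6.97, -4.83 and -6.94 in room air, -4.85, -4.16, -4.76 and -4.76 in WT smoke, and -5.63, -4.55, -5.42 and -4.96 in mutants. The third room-air mouse lay in the range of the smoke arrays, and only 2 of the 4 room-air arrays were well above background. Cxcl5 rose by 1.69 ± 0.42 in WT smoke (adjusted p = 0.0452). With normexp the difference was 0.04 (adjusted p = 0.983), and the cause of this loss was not tested. Without WT room air replicate 3 the rise was 2.19 (adjusted p = 1.21e-03) and without mutant replicate 2 the p was 0.0495, but leaving out any other single array took the p past the threshold, to at most 0.121 without WT smoke replicate 2. With the slide as a fixed block it was also lost (1.56, adjusted p = 0.0762).

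Cxcl1 (KC, the main mouse neutrophil chemokine; chromosome 5, 91968019 to 91968078) read -5.25, -4.53, -4.07 and -4.44 in room air, -3.92, -3.27, -3.20 and -3.31 in WT smoke, and -4.67, -4.95, -4.03 and -3.56 in mutants. WT smoke stood above room air on all arrays, and the mutants spread over both ranges. The difference of 1.15 ± 0.31 in smoke missed the threshold (adjusted p = 0.0633), though it passed with the slide as a fixed block (1.08, adjusted p = 0.0343) or without mutant replicate 4 (0.0391), and with normexp it was 0.12. The -0.88 ± 0.31 of mutants against WT smoke did not pass (adjusted p = 0.128). Cxcl2, another ligand of this kind, was above background on 2 of 12 arrays and was not tested.

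Cxcl15 (lungkine), which mouse lung epithelium makes constitutively, read 3.89, 4.21, 4.18 and 4.32 in room air, 4.08, 3.83, 3.97 and 3.95 in WT smoke, and 4.44, 4.09, 4.17 and 4.42 in mutants. The smoke groups did not overlap, while room air spanned most of both. Mutants were 0.33 ± 0.11 above WT smoke by this probe, which did not pass (adjusted p = 0.0985), and 0.30 ± 0.07 by the gene's other probe, which did (adjusted p = 0.0355, over all probes); that probe was also lower in WT smoke than in room air (-0.32 ± 0.07, adjusted p = 0.0312). Of 10 neutrophil markers, 0 passed as higher and 1 as lower in WT smoke (median 0.06), and the summed level was 3.89 to 4.82 in room air, 3.96 to 4.36 in WT smoke and 3.47 to 4.19 in mutants. Their part in these differences was not tested. Cxcr2, the receptor of this ligand group, listed in the files under another name, was lower in mutant smoke than in room air (-0.78 ± 0.21, adjusted p = 0.0239) and differed by -0.63 ± 0.21 from WT smoke (adjusted p = 0.0996).

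**Figure D3:**
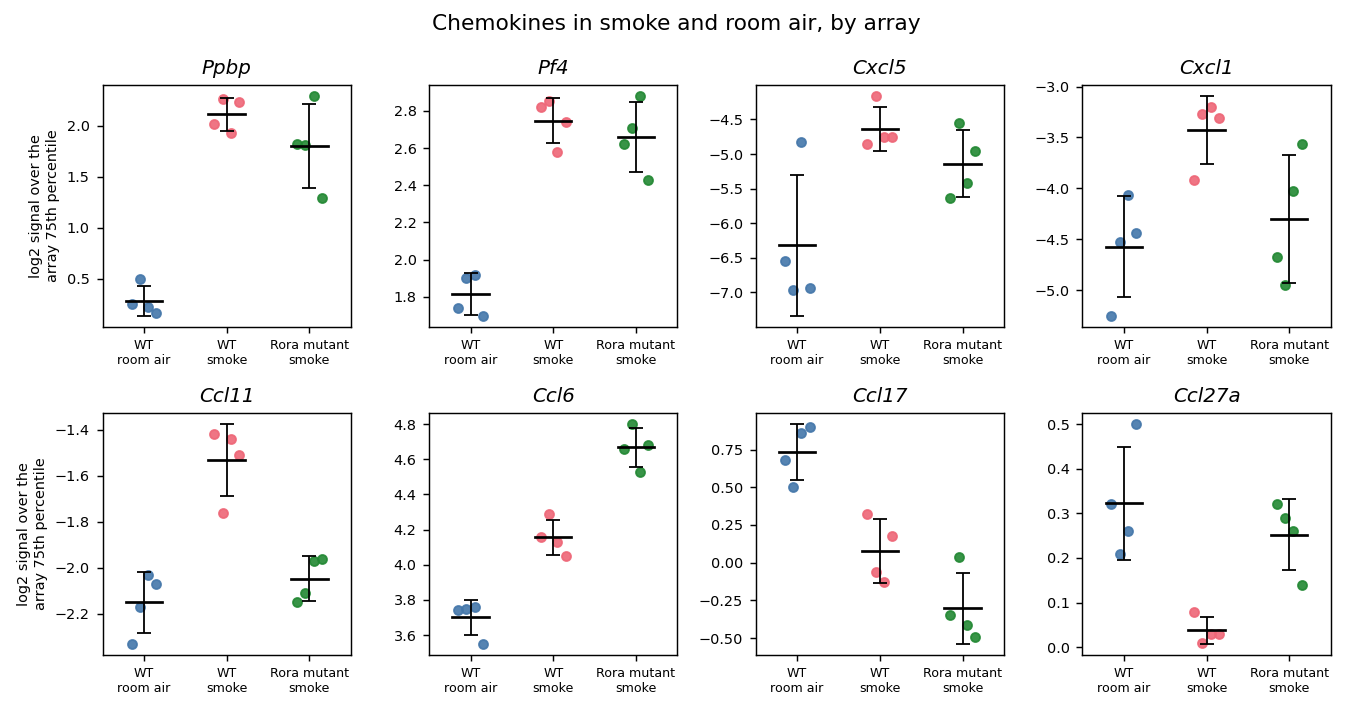
Log2 signal over the array's 75th percentile (y axis, own range in each panel) of 8 chemokines in the 3 groups (x axis); points are single mice, bars the mean ± SD of 4. Ppbp, Pf4, Ccl6 and Ccl17 show room air apart from both smoke groups, Ccl11 and Ccl27a show WT smoke apart from the other two, and in Cxcl5 the third room-air mouse, at -4.83, lies among the smoke arrays.

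Ligands of CCR3 and CCR4, which draw eosinophils and type 2 or skin-homing T cells, moved in different directions. Ccl11 (eotaxin, a CCR3 ligand; chromosome 11, 81878765 to 81878824) read -2.33, -2.17, -2.03 and -2.07 in room air, -1.42, -1.76, -1.44 and -1.51 in WT smoke, and -2.15, -2.11, -1.97 and -1.96 in mutants. WT smoke was apart from both other groups, which overlapped. Ccl11 rose by 0.62 ± 0.09 in WT smoke (1.54-fold, adjusted p = 2.43e-03; within slides 0.78, 0.54 and 0.59) and fell by 0.52 ± 0.09 in mutants against WT smoke (adjusted p = 8.11e-03; within slides -0.73, -0.47 and -0.53). Mutants in smoke differed from WT mice in room air by 0.10, with a 95% interval of -0.10 to 0.30. With normexp background correction the smoke difference shrank to 0.28 and the genotype difference to -0.15.

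Ccl17 (TARC, a CCR4 ligand made by dendritic cells; chromosome 8, 97700999 to 97701058) read 0.68, 0.50, 0.86 and 0.90 in room air, 0.32, -0.06, -0.13 and 0.18 in WT smoke, and -0.35, 0.04, -0.41 and -0.49 in mutants. Room air was above both smoke groups, and of the mutants replicate 2 lay among the WT smoke arrays. Ccl17 fell by 0.66 ± 0.14 in WT smoke (adjusted p = 0.0204) and by 1.04 ± 0.14 in mutants against room air (adjusted p = 6.00e-04). The difference of -0.38 ± 0.14 between the smoke groups did not pass (adjusted p = 0.133), though it did without mutant replicate 2 (-0.49, adjusted p = 0.0453). The smoke call was lost without WT room air replicate 3 (adjusted p = 0.0558) or 4 (0.0617), or WT smoke replicate 2 (0.0614) or 3 (0.0583), with differences of -0.62, -0.60, -0.61 and -0.59.

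Of 9 dendritic cell markers, 0 rose and 1 fell in WT smoke (median -0.20; Batf3, a factor of cross-presenting dendritic cells, by 0.49 ± 0.12), 2 fell in mutants against room air (median -0.34), and 0 passed between the smoke groups, with 3 at an unadjusted p under 0.05. Their summed level was 2.37 to 2.54 in room air, 2.14 to 2.40 in WT smoke and 2.09 to 2.40 in mutants, and their part in the lower Ccl17 was not tested. Ccl24 (eotaxin 2) differed by 0.21 ± 0.16 in smoke and -0.01 ± 0.16 in mutants, without passing. Of the markers of type 2 innate lymphoid cells and eosinophils, 1 of 6 fell in WT smoke (median -0.14) and 2 of 6 in mutants against WT smoke. In the latter Il1rl1, the IL-33 receptor, fell by 1.04 ± 0.07 and Il17rb, the IL-25 receptor, by 1.08 ± 0.13. Over all 6 markers the median there was -0.16, with 3 differences negative and 3 positive, up to 0.39. Their summed level was 1.64 to 1.83 in room air, 1.38 to 1.61 in WT smoke and 0.90 to 1.44 in mutants. The part of these cells in the lower Ccl11 of mutants was not tested.

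Ccl6 and Cxcl14 were the 2 members (of 43; 1.36% of all genes) whose 3 groups were all apart from one another, in opposite directions. Ccl6 (a CC chemokine of macrophages that binds CCR1; chromosome 11, 83404690 to 83404749) read 3.74, 3.75, 3.76 and 3.55 in room air, 4.16, 4.29, 4.13 and 4.05 in WT smoke, and 4.66, 4.80, 4.53 and 4.68 in mutants. It rose by 0.46 ± 0.08 in WT smoke (adjusted p = 4.96e-03; within slides 0.51, 0.41 and 0.37) and by a further 0.51 ± 0.08 in mutants (adjusted p = 3.56e-03; 0.51, 0.63 and 0.47). Cxcl14 (BRAK, made without stimulus by many epithelia and by fibroblasts; chromosome 13, 56298339 to 56298398) read 3.63, 3.77, 3.60 and 3.78 in room air, 3.42, 3.41, 3.57 and 3.30 in WT smoke, and 2.65, 2.78, 3.01 and 2.64 in mutants. Mutants lay clearly below WT smoke, which lay just below room air. Cxcl14 fell by 0.66 ± 0.09 in mutants against WT smoke (adjusted p = 2.20e-03; within slides -0.77, -0.58 and -0.74), and its -0.27 ± 0.09 in WT smoke did not pass (adjusted p = 0.116). Both genotype calls held without any 1 array, with the highest adjusted p at 0.0139 for Ccl6 and 8.50e-03 for Cxcl14.

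As the 2 members that differed between the smoke groups in this ordered way, their 250 bases before the RefSeq start are shown on the gene's own strand, the minus strand (GRCm38.p6, chr11:83593088-83593337 and chr13:56296552-56296801), with AGGTCA or its reverse complement TGACCT in capitals.
Ccl6: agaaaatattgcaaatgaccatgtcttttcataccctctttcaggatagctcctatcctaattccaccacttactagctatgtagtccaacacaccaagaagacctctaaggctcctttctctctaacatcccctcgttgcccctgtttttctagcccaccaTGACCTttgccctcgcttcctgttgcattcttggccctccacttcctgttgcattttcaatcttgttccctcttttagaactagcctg
Cxcl14: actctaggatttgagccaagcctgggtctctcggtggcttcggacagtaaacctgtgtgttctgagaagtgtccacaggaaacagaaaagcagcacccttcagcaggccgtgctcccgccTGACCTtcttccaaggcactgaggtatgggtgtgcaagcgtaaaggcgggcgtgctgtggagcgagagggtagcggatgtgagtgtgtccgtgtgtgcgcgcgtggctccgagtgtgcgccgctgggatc
Each holds 1 match, starting 88 bases before the start in Ccl6 and 130 in Cxcl14. Over the 32 members with a promoter in the table, 10 (31.2%) had AGGTCA on either strand, against 14% of 32851 promoters of the same length. The others were Ccl17, Ccl20, Ccl27a, Ccl3, Ccr6, Cxcl13, Cxcl9 and Ppbp. GCGTG was in 37.5% of members against 28.2% of all promoters and GATAA in 21.9% against 22.6%, each counted on both strands; a match is a stretch of letters, not a bound site. The members not in the promoter table included Ccl11, Ccl2, Ccl21c, Ccl24, Ccl4, Ccl5, Ccl7, Ccr7, Cxcl16 and Cxcl5.

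Alveolar macrophage markers moved with Ccl6 between the smoke groups. Of 10, 5 passed as higher in mutants than in WT smoke (median 0.52) and 0 as lower. Siglecf, a lectin found on these cells but not only on them, rose by 0.83 ± 0.08. Chil3, a chitinase-like protein, rose by 0.74 ± 0.12. In WT smoke against room air 2 of 10 rose (Marco, a scavenger receptor, by 0.86 ± 0.21 and Pparg, a nuclear receptor these cells need, by 0.42 ± 0.07) and the median was 0.00, while Ccl6 rose. The summed level was 6.65 to 6.80 in room air, 6.70 to 6.86 in WT smoke and 7.14 to 7.77 in mutants. Its part in the level of Ccl6 was not tested. Of 8 fibroblast markers, 1 rose and 1 fell in mutants against WT smoke (median -0.04), beside the fall of Cxcl14. Of the airway epithelial markers, 3 of 10 for club and goblet cells fell there (median -0.37, all 10 differences negative), among them Muc5b, a secreted mucin, by 0.78 ± 0.10. For ciliated cells 1 of 7 fell (median -0.18, all 7 negative), Tekt1, a protein of cilia, by 0.33 ± 0.08. Alveolar epithelial markers mostly went the other way without passing. For type 2 cells 8 of 9 differences were positive (median 0.16), and for type 1 cells 5 of 7 (median 0.08). The summed level of club and goblet markers was 10.01 to 10.11 in room air, 9.74 to 10.18 in WT smoke and 9.74 to 9.93 in mutants, and that of ciliated markers 5.91 to 6.01, 5.73 to 6.10 and 5.62 to 5.76. In WT smoke against room air 6 of 10 club and goblet markers fell (median -1.47) and 0 of 7 ciliated ones passed (median -0.15). Cxcl14 differed there by -0.27 without passing. The part of these cell types in the fall of Cxcl14 was not tested.

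The CXCR3 ligands Cxcl9 and Cxcl10, which interferon induces and which attract activated T and natural killer cells, were lowest in mutants but uneven in room air. Cxcl9 (chromosome 5, 93398365 to 93398424) read -2.86, -4.52, -2.17 and -4.50 in room air, -4.11, -3.85, -4.75 and -3.39 in WT smoke, and -5.00, -5.26, -4.93 and -5.21 in mutants. All mutants lay below all other mice, and room air had 2 high and 2 lower arrays. Cxcl9 fell by 1.59 ± 0.48 in mutants against room air (adjusted p = 0.0428), and its -1.07 ± 0.48 against WT smoke did not pass (adjusted p = 0.224); with normexp background correction the latter turned to 0.28 and the former shrank to -0.05. The call against room air held without WT room air replicate 2 (adjusted p = 0.0246) or 4 (0.0241) or WT smoke replicate 3 (0.0451) or 4 (0.0466) and was lost without any other single array, at most to 0.109 without room air replicate 1 (-1.37), and with the slide as a fixed block (0.0701). Cxcl10 ranged from -2.68 to -1.22 in room air, -2.61 to -1.15 in WT smoke and -2.88 to -2.37 in mutants and passed in no comparison, and Cxcl11, the remaining CXCR3 ligand, was above background on 0 of 12 arrays.

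The third room-air mouse stood high for several inducible chemokines. It had the highest level of its group in 20 of 43 members, whereas it was the highest in 23.3% of all genes. Other arrays were as often at an end of their group: mutant replicate 3 was the highest in 21 members (32% of all genes), WT smoke replicate 3 the lowest in 21 (20.8%), and room air replicate 2 and mutant replicate 4 the lowest in 19 each (20% and 31%). The third room-air mouse read -1.22 for Cxcl10 (the other three at -2.50 or lower), -1.26 for Cxcl13, a B cell chemokine (-2.20 or lower), and 0.32 for Ccl8, a monocyte chemokine (-0.78 or lower). Without that mouse the smoke difference went from 0.37 to 0.71 for Cxcl10, from -0.51 to -0.06 for Cxcl9, from -0.37 to -0.04 for Cxcl13 and from -0.19 to 0.15 for Ccl8, and none of the 4 passed.

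**Figure D4:**
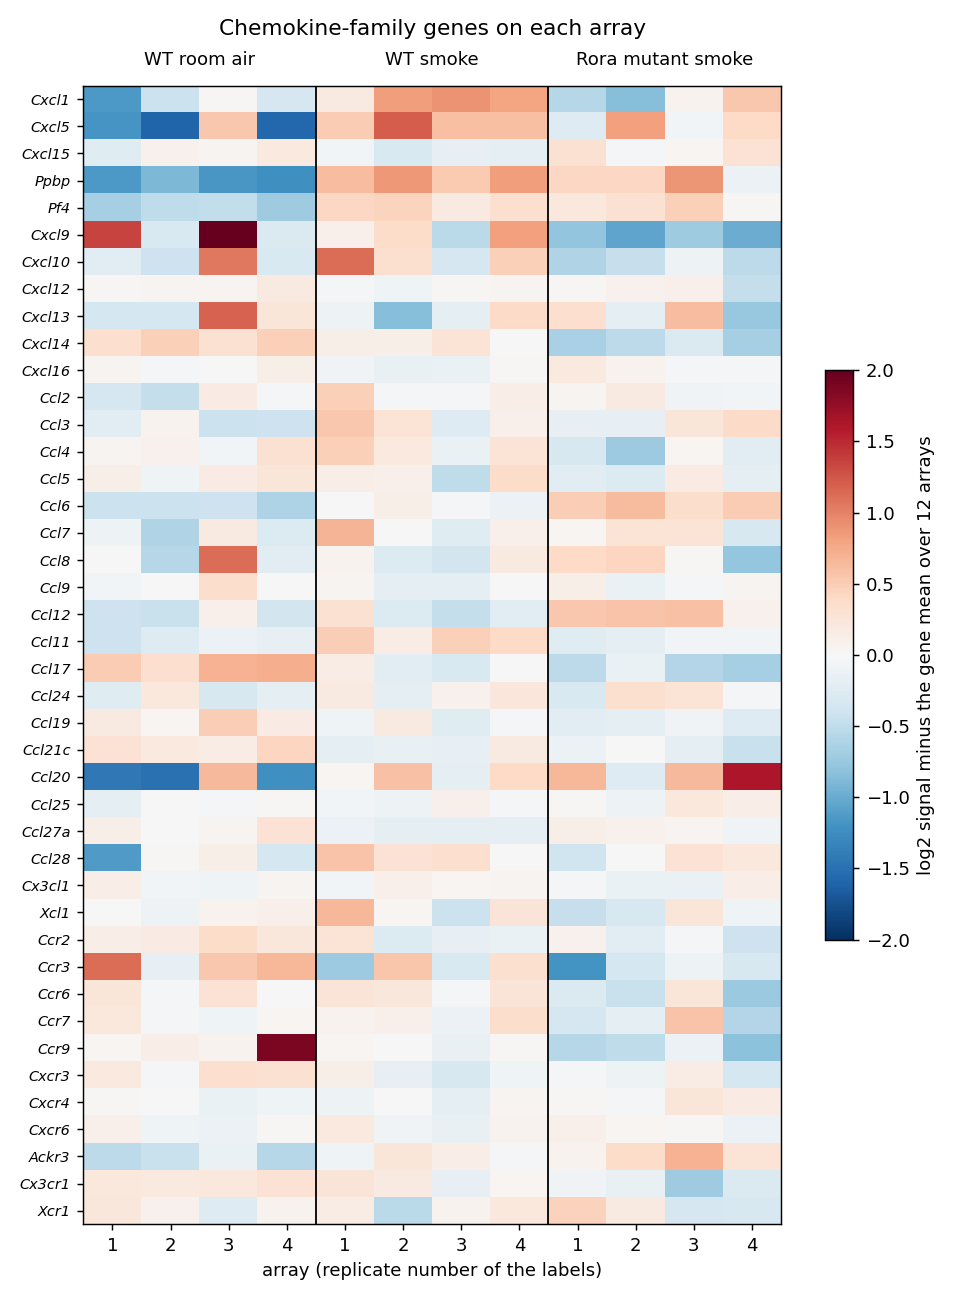
Level of the members (rows, by role) on each of the 12 arrays (columns, by group and replicate number), as log2 signal minus the gene's mean over the 12 arrays; red is above and blue below that mean, and the colour scale ends at 2 units on either side. Ppbp is blue in room air and red in nearly all smoke arrays, Cxcl14 turns blue in mutants, and the third room-air array is red for Cxcl9, Cxcl10, Cxcl13 and Ccl8.

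Ccl20 (chromosome 1, 82997949 to 82998008), the epithelial ligand of CCR6, was among the genes that this mouse touched. It read -5.30, -5.37, -3.23 and -5.10 in room air, -3.83, -3.29, -4.07 and -3.47 in WT smoke, and -3.21, -4.13, -3.23 and -2.26 in mutants. The 3 other room-air mice lay below all smoke-exposed mice. Ccl20 rose by 1.54 ± 0.48 in mutants against room air (adjusted p = 0.0476) and by 2.05 without room air replicate 3 (adjusted p = 4.43e-03); this call also held without mutant replicate 2 (1.85, adjusted p = 0.0286) and was lost without any other single array, at most to 0.13 without mutant replicate 4 (1.22), and with the slide as a fixed block (1.33, 0.0796). In WT smoke the difference of 1.08 ± 0.48 did not pass (adjusted p = 0.255), and without room air replicate 3 it did (1.59, adjusted p = 0.0363).

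Other epithelial ligands moved little. Ccl27a, a CCR10 ligand best known from skin, read 0.32, 0.21, 0.26 and 0.50 in room air, 0.08, 0.01, 0.03 and 0.03 in WT smoke, and 0.32, 0.29, 0.26 and 0.14 in mutants. WT smoke lay below both other groups on all arrays. Ccl27a fell by 0.28 ± 0.07 in WT smoke (1.22-fold, adjusted p = 0.0353), and mutants were 0.21 ± 0.07 above WT smoke without passing (adjusted p = 0.0868; 0.0426 without room air replicate 4). The smoke call was lost without room air replicates 1, 3 or 4 (adjusted p = 0.0727, 0.0537 and 0.0705) or WT smoke replicates 1, 2, 3 or 4 (0.0565, 0.093, 0.0826 and 0.0802), with differences from -0.30 to -0.22, and also with the slide as a fixed block (-0.26, 0.055) or median centring (-0.25, 0.0614). Mice carry near-identical copies of Ccl27a and of Ccl21c, so a probe of either may read several copies. Ccl25, the CCR9 ligand of thymus and gut, differed by 0.02 ± 0.08 and 0.09 ± 0.08. Ccl28, a mucosal ligand of CCR10, was the member nearest the filter, not well above background on any room-air array, on 3 of 4 in WT smoke and on 2 of 4 in mutants. It read -7.82 to -6.57, -6.68 to -6.13 and -7.09 to -6.40 in these groups, which overlapped, and it did not pass in WT smoke (adjusted p = 0.194) or the other comparisons.

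Among the CC ligands that draw monocytes, macrophages and T cells, 1 of 9 rose in WT smoke and 1 in mutants, Ccl6 both times. Ccl12 (MCP-5, a CCR2 ligand; chromosome 11, 81919403 to 81919462) read -2.99, -3.02, -2.48 and -2.94 in room air, -2.27, -2.86, -3.05 and -2.80 in WT smoke, and -2.04, -2.01, -2 and -2.50 in mutants. The mutants stood high but for replicate 4, which overlapped both other groups. Ccl12 rose by 0.72 ± 0.18 in mutants against room air (adjusted p = 0.0188), and this was lost without room air replicate 1 (0.67, adjusted p = 0.0509) or 2 (0.66, 0.0529). Its 0.61 ± 0.18 against WT smoke did not pass (adjusted p = 0.0712), and did without WT smoke replicate 1 (0.77, adjusted p = 0.0296).

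The rest of this ligand group did not pass. In WT smoke the monocyte chemokines Ccl2 and Ccl7 differed by 0.31 ± 0.15 and 0.34 ± 0.21, and the macrophage inflammatory proteins Ccl3 and Ccl4 and the T cell chemokine Ccl5 by 0.41 ± 0.18, 0.10 ± 0.16 and -0.09 ± 0.17. In mutants against WT smoke Ccl4 differed by -0.51 ± 0.16 (adjusted p = 0.0868; -0.63 and 0.0442 without mutant replicate 3). Ccl9, a CCR1 ligand of myeloid cells, differed by -0.16 ± 0.10 in smoke and 0.09 ± 0.10 in mutants.

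Ccl19 and Ccl21c, the ligands that lead dendritic cells and naive T cells through CCR7, were lower in mutant smoke than in room air. Ccl19 read 1.88, 1.75, 2.20 and 1.87 in room air, 1.62, 1.89, 1.46 and 1.68 in WT smoke, and 1.47, 1.53, 1.64 and 1.45 in mutants. Ccl21c read 3.86, 3.76, 3.71 and 3.99 in room air, 3.38, 3.41, 3.40 and 3.75 in WT smoke, and 3.44, 3.56, 3.38 and 3.12 in mutants. For both the mutants lay below room air on all arrays, and 1 WT smoke mouse reached into the room-air range. Against room air Ccl19 fell by 0.40 ± 0.11 (adjusted p = 0.0242) and Ccl21c by 0.45 ± 0.11 (adjusted p = 0.0165) in mutants, and in WT smoke they differed by -0.26 ± 0.11 and -0.34 ± 0.11 without passing (adjusted p = 0.213 and 0.111). Without WT smoke replicate 4 the smoke difference of Ccl21c passed (-0.43, adjusted p = 0.0484). The call for Ccl19 was lost without room air replicate 3 (-0.31, adjusted p = 0.0522) or mutant replicates 1 (-0.39, 0.0585) or 4 (-0.38, 0.0669). Their receptor Ccr7 differed by 0.07 ± 0.20 in smoke and -0.24 ± 0.20 in mutants. Of 7 lymphatic endothelial markers, 2 passed as higher and 2 as lower in mutants against room air (median 0.18), and of 9 T cell markers 1 as lower (median -0.38), with a summed T cell level of 2.28 to 3.05 in room air, 1.98 to 2.38 in WT smoke and 1.83 to 2.56 in mutants. Their part was not tested.

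The remaining CXC, CX3C and XC ligands passed in no comparison by their brightest probe. Cxcl12 (SDF-1), the ligand of Cxcr4, differed by -0.09 ± 0.11 in WT smoke by its brightest probe and by -0.47 ± 0.11 by its other probe (adjusted p = 0.0432 over all probes). In mutants against room air that other probe was at -0.59 ± 0.11 (adjusted p = 5.30e-03) and the brightest at -0.14 ± 0.11 (adjusted p = 0.422), so the probes disagreed. Cx3cl1 (fractalkine), a membrane-bound ligand of endothelium and epithelium, differed by 0.02 ± 0.07 in WT smoke, with a 95% interval of -0.13 to 0.18. Cxcl16, the ligand of Cxcr6, differed by -0.11 ± 0.07 in smoke and 0.13 ± 0.07 in mutants, and Xcl1, made by natural killer and CD8 T cells, by 0.12 ± 0.20 and -0.29 ± 0.20.

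While 0 of 12 receptors passed in WT smoke or between the smoke groups, 3 of 12 passed between mutant smoke and room air, 1 higher and 2 lower (25%, against 16.8% of all genes). Ackr3 (CXCR7, an atypical receptor that takes up CXCL12; chromosome 1, 92046399 to 92046458) read 1.21, 1.29, 1.60 and 1.16 in room air, 1.64, 1.97, 1.86 and 1.71 in WT smoke, and 1.80, 2.10, 2.42 and 2.00 in mutants. Both smoke groups lay above room air and overlapped each other. Ackr3 rose by 0.77 ± 0.14 in mutants against room air (adjusted p = 3.15e-03), and its 0.48 ± 0.14 in WT smoke did not pass (adjusted p = 0.069), although it did without room air replicate 3 (0.58, adjusted p = 0.0417) or mutant replicate 3 (0.48, 0.0359).

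Cx3cr1, the fractalkine receptor of monocytes, read -1.74, -1.76, -1.74 and -1.66 in room air, -1.69, -1.78, -2.12 and -1.91 in WT smoke, and -2.03, -2.11, -2.67 and -2.24 in mutants. Room air was tight and above all mutants. Cx3cr1 fell by 0.53 ± 0.13 in mutants against room air (adjusted p = 0.017), and by its dimmer second probe the difference was -0.42 ± 0.13 (adjusted p = 0.0516). In WT smoke the 2 probes gave -0.15 ± 0.13 and -0.54 ± 0.13 (adjusted p = 0.621 and 0.0457).

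Ccr2, the monocyte receptor of Ccl2, read -0.09, -0.05, 0.15 and 0.00 in room air, 0.05, -0.49, -0.39 and -0.35 in WT smoke, and -0.14, -0.44, -0.26 and -0.64 in mutants. Mutants lay below room air on all arrays, and the difference of -0.37 ± 0.13 missed the threshold (adjusted p = 0.067), which it passed without WT smoke replicate 1 (0.0306) or mutant replicate 1 (-0.45, 0.0459). Ccr9, a receptor of gut-homing T cells, read -2.99, -2.90, -2.95 and -1.14 in room air, -2.99, -3.04, -3.18 and -3.00 in WT smoke, and -3.60, -3.54, -3.15 and -3.85 in mutants. The fourth room-air mouse stood far above the rest. Without it Ccr9 passed in mutants against WT smoke (-0.49, adjusted p = 0.045) and against room air (-0.59, adjusted p = 0.0155); with it the differences were -0.49 ± 0.35 and -1.04 ± 0.35 and neither passed (adjusted p = 0.469 and 0.061).

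**Figure D5:**
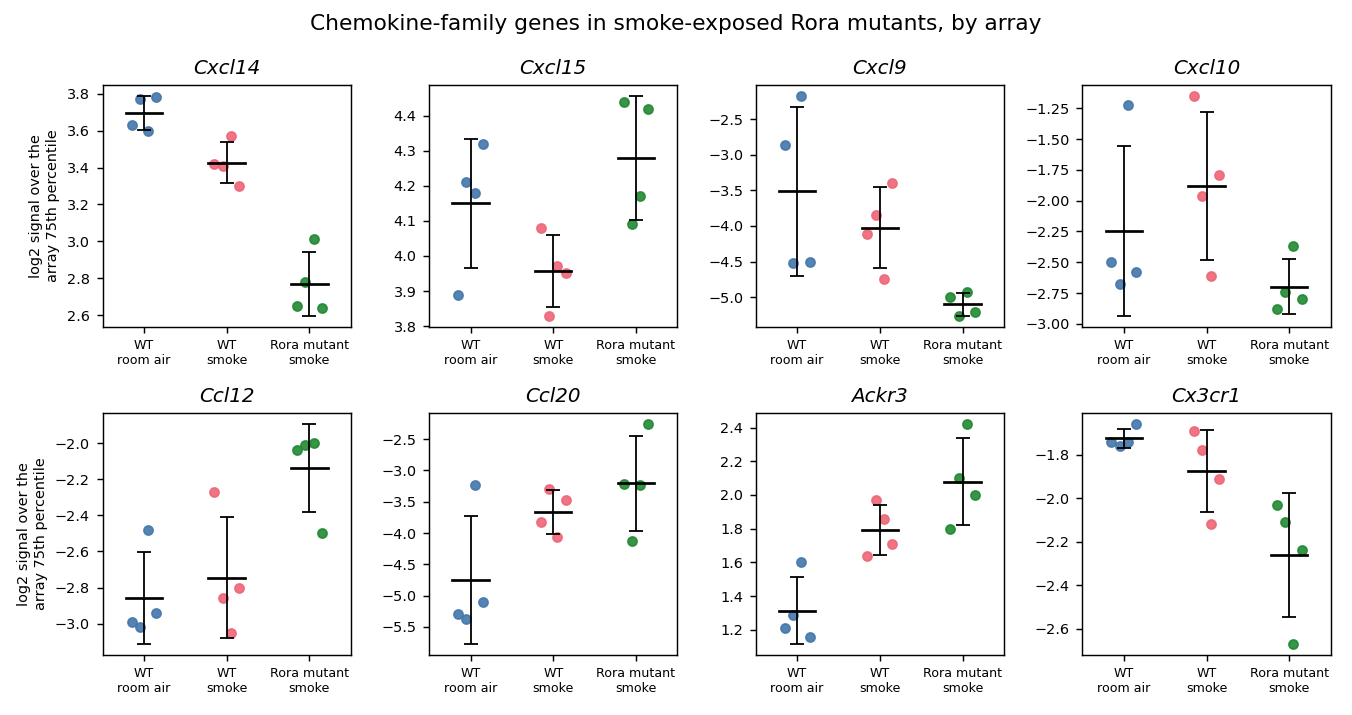
Log2 signal over the array's 75th percentile (y axis, own range in each panel) of 8 further members in the 3 groups (x axis); points are single mice, bars the mean ± SD of 4. Cxcl14 steps down to 2.64 to 3.01 in mutants, Cxcl9 is lowest in mutants and uneven in room air, and Ackr3 lies above its room-air range of 1.16 to 1.60 on all smoke arrays.

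The remaining receptors passed in no comparison. Ccr6, the receptor of Ccl20, differed by -0.49 ± 0.17 in mutants against WT smoke (adjusted p = 0.123) and passed there without mutant replicate 3 (-0.67, adjusted p = 0.0141), as it did against room air (-0.63, 7.48e-03). Ccr3, the eosinophil receptor of Ccl11, ranged from -6.89 to -4.58 over the 12 arrays and was above background on 10; it differed by -1.03 ± 0.34 in mutants against room air (adjusted p = 0.0566; its other probe was above background on 0 arrays) and passed without room air replicate 2 (-1.26, 0.0319) or WT smoke replicate 1 (0.0443). Cxcr3, the receptor of Cxcl9 and Cxcl10, differed by -0.31 ± 0.12 in smoke (adjusted p = 0.203). Cxcr4, Cxcr6 and the dendritic cell receptor Xcr1 differed by at most 0.16 in either direction in WT smoke or between the smoke groups.

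Of the genes below the filter, Ccl1, Ccr1, Ccr10, Ccr4, Ccr8 and Cxcl11 were above background on 0 of 12 arrays, Cxcl2 on 2 and Ccl22, the second CCR4 ligand, on 3. Just inside it stood Ccl28 with 5 arrays and Ccr3 and Cxcl5 with 10 each. The receptors of Ccl17 (Ccr4) and Ccl27a (Ccr10) and the main receptor of Ccl6 (Ccr1) were thus not measured here.

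Genes that act with chemokines were taken from 5 lists. Of 32 signalling genes behind the receptors, 2 rose and 1 fell in WT smoke (9.38%, against 4.88% of all genes): Rgs2 by 0.38 ± 0.08 and Rgs18, an RGS protein abundant in platelets, by 0.61 ± 0.14, while Rgs16 fell by 0.77 ± 0.17; RGS proteins switch off G protein signals. In mutants against WT smoke 1 rose and 2 fell (9.38%, against 6.15% of all genes). Itgb2, the beta chain of leukocyte integrins, rose by 0.33 ± 0.06. Rgs2 fell by 0.63 ± 0.08 and Itga4, an integrin of lymphocytes and monocytes, by 0.43 ± 0.11. Against room air 2 rose and 5 fell in mutants (21.9%, against 16.8% of all genes).

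Among 21 genes of other chemoattractants and their receptors, 1 rose in WT smoke (4.76%, against 4.88% of all genes). It was Ch25h, which starts the synthesis of an oxysterol attractant of B cells, by 0.64 ± 0.13. In mutants against WT smoke 3 rose and 0 fell (14.3%, against 6.15% of all genes). Fpr1 and Fpr2, the formyl peptide receptors of phagocytes, rose by 1.02 ± 0.09 and 0.82 ± 0.14, and Lta4h, which makes leukotriene B4, by 0.19 ± 0.05. Of 14 proteases and glycan partners of chemokines 0 passed in WT smoke, with 0 at an unadjusted p under 0.05. Between the smoke groups 1 rose and 1 fell in mutants (14.3%, against 6.15% of all genes). Ctss, a macrophage cathepsin, rose by 0.38 ± 0.07 and Mmp9 fell by 0.51 ± 0.08. Of 5 atypical receptors and scavengers, 0 passed in WT smoke or between the smoke groups, with 0 and 1 at an unadjusted p under 0.05. Ackr2, which removes CC chemokines, was 0.27 ± 0.07 higher in mutants than in room air (1 of 5, 20%, against 16.8% of all genes). Of 9 family genes listed under other names, 1 rose in WT smoke (11.1%, against 4.88% of all genes), Cxcl17, a mucosal chemokine, by 0.26 ± 0.07. Between the smoke groups 0 passed (3 at an unadjusted p under 0.05), and 2 fell in mutants against room air (22.2%, against 16.8%).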

How the data were processed

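Per the file headers, the authors scanned the arrays with Agilent Feature Extraction (9.5.3.1, per the submitters' processing notes), whose processed signal, a linear intensity, has had background subtracted and was detrended, without scaling between arrays. The deposited value table holds log2 intensity, quantile-normalized as found by setting it against the processed signal, and was used as an alternative. The other deposited flags are values of 0 or 1. From 43379 spots, replicate spots were averaged to 41174 probes without outlier flags, taken as log2 and scaled to the array's 75th percentile. Probes above background on at least 4 of 12 arrays (30189) were kept, and the brightest stood for each of 19823 genes; symbols were updated through a RefSeq list, by which Cxcl4, Cxcr7 and Ccl27 of the files are Pf4, Ackr3 and Ccl27a. Groups came from the labels. The 3 comparisons were fitted in 1 model (limma 3.58.1 lmFit and eBayes, R 4.3.3, data.table, version 1.17.8; plots with matplotlib 3.10.9, Python 3.11.15), two-sided, with Benjamini-Hochberg adjusted p over all genes; other probes of a gene were adjusted over all kept probes. On simulated data of 19823 genes for WT smoke against room air, 66 of 100 genes changed by 0.5 log2 units and 97 of 100 changed by 1 were recovered, with 11 false calls. The simulated noise was normal and independent, with each gene's own spread and no slide or array effect. The changed genes were drawn from all genes, so these shares need not hold for dim members with a wide spread. The members and lists were chosen with earlier results of these data known. By rule, values on every array are given for members that passed in a comparison or whose groups of 4 did not overlap while all 4 arrays of the brighter group were above background; other members are summarised, and up to 4 genes a list with the smallest p are named. Probe positions are those of the files (mm8). Alternatives were normexp background correction (offset 50), quantile normalization, median centring, the deposited value table, and other filters and probe rules. Further ones were slide and replicate blocks, a trended prior, 2-group fits and leaving out each array. Normexp started from the mean spot signal and the median background signal, not from the processed signal. Some genes are counted in the totals and not reported here by name.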

Additional observations from a re-analysis of the deposited data

Results flagged for a closer look

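Some single arrays stood far from the other 3 of their group, by a gap that exceeds Dixon's 95% critical value for 4 samples. This held for 12 of 129 groups of a member gene; chance gives about 1 in 20. The third room-air mouse was the highest of its group for Ccl20 (-3.23), Cxcl10 (-1.22), Ccl12 (-2.48) and Ccl9 (-0.16). The fourth room-air mouse was the highest for Ccr9 (-1.14) and the lowest for Ccl6 (3.55). Among WT smoke mice, replicate 1 was the lowest for Cxcl1 (-3.92), replicate 2 the highest for Cxcl5 (-4.16), replicate 3 the lowest for Ccr6 (-1.2) and replicate 4 the highest for Ccl21c (3.75). Among mutants, replicate 4 was the lowest for Ccl12 (-2.50) and for Cxcl12 (3.70).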

How the results depend on the processing

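Ppbp and Pf4 kept their direction and call in WT smoke, and in mutants against room air, under all 25 alternatives. Members passing as higher and lower in WT smoke (5 and 2) numbered 2 and 0 with normexp; lower ones numbered 1 with median centring, no filter, the slide as a fixed block or only the 2 groups compared, and 0 with the replicate block. Between the smoke groups (1 and 2) they were 0 and 0 with normexp, and higher ones 3 with median centring and 2 with the mean of all probes or a trended prior. Mutants against room air (6 and 7) had 3 and 2 with normexp and 4 lower with the replicate block. Leaving out 1 array gave 4 to 7 higher and 0 to 2 lower in WT smoke, 1 to 2 and 2 to 4 between the smoke groups, and 4 to 7 and 4 to 8 for mutants against room air. Normexp called 40 genes higher and 13 lower in WT smoke in all (main 475 and 493), 11 and 15 between the smoke groups (527 and 693) and 77 and 82 for mutants against room air (1441 and 1888); the cause was not tested. With it Cxcl9 turned to 0.28 between the smoke groups, the only reversal among values with a test. Median centring gave 3169 higher for mutants against room air, and fitting every probe gave 1100 lower between the smoke groups. Without the filter 300 and 263 genes passed in smoke, and 311 and 385 between the smoke groups, where the 2-group fit gave 347 and 400. Leaving out 1 array gave 282 (WT room air replicate 4) to 484 higher and 262 (WT smoke replicate 2) to 492 lower genes in smoke, 288 to 489 and 290 to 688 between the smoke groups, and 955 to 1386 and 1292 to 1863 for mutants against room air, the lowest count of each kind in these last 2 comparisons being that without mutant replicate 4. The labels do not say that replicate numbers pair mice, and the correlations do not settle it. Same-number correlations ran from -0.10 to 0.22 (median 0.03, 4 of 12 above 0.1). Different-number ones ran from -0.20 to 0.21 (median -0.02, 4 of 36 above 0.1). Of 12 arrays, 7 correlated best with an array of their own number, and arrays numbered 1 to 3 also share a slide by number. The replicate block gave 342 higher and 329 lower in smoke. With that block Cxcl1 (adjusted p = 0.0245) and Ackr3 (0.0182) passed in smoke, and Cxcl5 (0.0807), Ccl27a (0.0818) and Ccl17 (0.062) did not. For mutants against room air Cxcl9 (0.0746), Ccl20 (0.0685) and Ccl19 (0.0525) did not pass with it. The number of arrays and the dim signal of Cxcl5, Ccr3 and Ccl28 limit precision.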
